A study of Mus musculus with 4 samples.

Results

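The genes described here are the carriers of inorganic ions of the solute carrier (SLC) families SLC4, SLC8, SLC9, SLC12, SLC13, SLC17, SLC20, SLC24, SLC26 and SLC34, chosen by gene symbol from the mouse kidney medulla. Such a symbol was held by 71 of the 27179 genes measured, and 6 of these, Slc4a1, Slc4a9, Slc8a1, Slc12a1, Slc12a3 and Slc26a4, were set apart by name. Of the remaining 65 genes, 55 had a mean normalized read count of at least 10 over the 4 libraries and are described below, 51 of them carriers. The other 4 matched by name alone: Slc4a1ap, Slc9a3r1 and Slc9a3r2 encode adaptor proteins, and Slc13a2os is an antisense RNA. Just inside that limit stood Slc17a7, with a mean of 11.5, and just outside it Slc17a2 and Slc4a10, with means of 9.17 and 8.28.

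The medulla is the inner kidney, home of collecting ducts and loops of Henle. It was taken at postnatal day 14 from Actr3-fl/fl*Cdh16-Cre mice (labelled Actr3 KO, 2 libraries) and from wild type controls (labelled Actr3 WT, 2 libraries), both of a mixed C57BL/6 strain. Actr3 encodes Arp3, a subunit of the complex that nucleates branched actin, and the Cdh16 promoter drives Cre in tubule epithelium, so the allele is aimed at tubule cells and not at the other cells of the medulla. The sources used here do not say whether the controls carried Cre or floxed alleles. Each library is taken to be 1 animal, and the comparison asked how the medullary transcriptome of the KO differed from that of WT. The libraries held 36482238 and 40784436 reads in KO and 40453242 and 40342530 in WT. Actr3 itself had 12587 and 12480 normalized read counts in the libraries labelled KO, against 8065 and 7275 in those labelled WT, so it was higher in the KO-labelled libraries (log2 difference 0.71, limma adjusted p = 0.000494). A count over the whole gene includes exons that Cre leaves in place, so it does not check the deletion, and every direction below rests on the labels, hence the names KO-labelled and WT-labelled.

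Inorganic ions cross tubule cells in steps. Carriers of the urinary side let sodium in together with, or in exchange for, protons, phosphate, sulfate or chloride, and carriers of the blood side return bicarbonate, chloride and potassium. Sodium-proton exchangers of the SLC9 family and bicarbonate carriers of the SLC4 family together reclaim filtered bicarbonate, SLC34 and SLC20 carry phosphate, SLC13 sulfate and dicarboxylates, SLC26 a range of anions, SLC12 chloride with sodium or potassium, and SLC8 and SLC24 exchange sodium for calcium. Several SLC9 and SLC17 members work in endosomes, lysosomes or vesicles instead of the surface.

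Falls were more numerous than rises among these genes, and the deepest were those of the apical exchanger Slc9a3 and the phosphate carrier Slc34a3. In the KO-labelled libraries 24 of 55 (43.6%) were lower and 10 (18.2%) higher by limma at an adjusted p under 0.05, while over all 16253 genes tested 24.9% were lower and 26.3% higher. The median log2 difference (KO-labelled minus WT-labelled, on log2 of the normalized count + 1) was -0.33 over the 55 genes, beside 0.00 over all genes tested, and -0.20 without KO replicate 1. Among the carriers alone, 23 of 51 were lower and 9 higher. Changes of at least 1 on the log2 scale numbered 13 falls (23.6%) and 8 rises (14.5%), beside 9.45% and 10.7% of all genes tested. Both KO-labelled values lay below both WT-labelled ones in 31 genes and above them in 13, against 38.7% and 39.8% of all genes tested, and the groups overlapped in 11. Called falls ran from -3.89 to -0.25 and called rises from 0.25 to 2.13. Because Slc17a7 averaged 3.96 in WT-labelled libraries and 19.0 in KO-labelled ones, it reached the limit on low values only through the KO-labelled group.

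**Figure D1:**
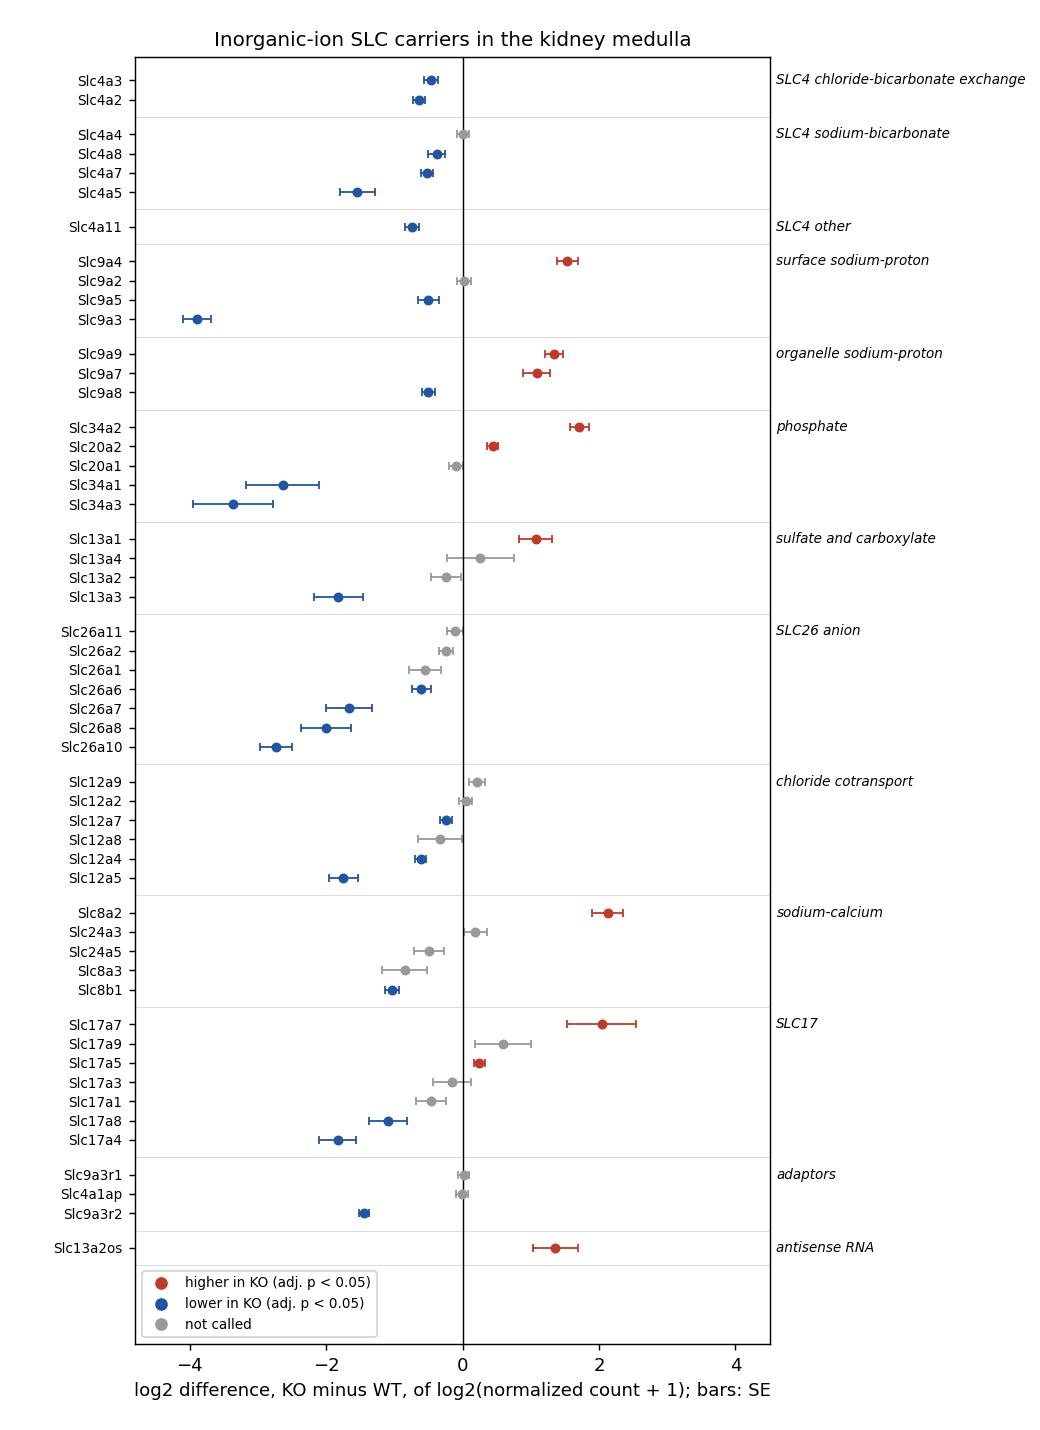
Log2 difference, KO-labelled minus WT-labelled, of 52 of the 55 genes, grouped by role, with the limma SE as bars and colours for genes called higher, lower or not called at an adjusted p under 0.05. Slc9a3 at -3.89 and Slc34a3 at -3.37 lie farthest to the left and Slc8a2 at 2.13 farthest to the right.

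The sequences before the starts of 5 genes are shown. These genes include the deepest called fall, Slc9a3, and the largest called rise on the log2(value + 1) scale, Slc8a2. The other 3 are paralogs of a phosphate family that moved apart. Each sequence is the 250 bases upstream of the start in a RefSeq promoter table of GRCm38.p6, read 5′ to 3′ on the gene's strand. They lie at chr13:74121163-74121412 (plus strand), chr13:55399398-55399647 (plus), chr2:25234235-25234484 (minus), chr5:53049103-53049352 (plus) and chr7:16129576-16129825 (plus). For each of these genes except Slc34a2 the RefSeq gene span reaches beyond this start. Capitals mark matches, on either strand, to the AP-1 site TGANTCA, the GC box GGGCGG, the TATA box TATAAA or the HNF1 core GTTAAT, motifs whose letters do not overlap here.
Slc9a3: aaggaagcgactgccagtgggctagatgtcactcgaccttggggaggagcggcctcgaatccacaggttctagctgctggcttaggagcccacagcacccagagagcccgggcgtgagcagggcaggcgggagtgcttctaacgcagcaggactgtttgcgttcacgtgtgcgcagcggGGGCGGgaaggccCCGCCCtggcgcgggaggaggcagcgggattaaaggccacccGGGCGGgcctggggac
Slc34a1: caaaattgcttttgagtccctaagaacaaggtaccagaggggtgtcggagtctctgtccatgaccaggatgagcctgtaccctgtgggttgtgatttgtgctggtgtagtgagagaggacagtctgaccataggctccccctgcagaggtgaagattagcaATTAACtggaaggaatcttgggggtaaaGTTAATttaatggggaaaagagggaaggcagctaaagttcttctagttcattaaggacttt
Slc34a3: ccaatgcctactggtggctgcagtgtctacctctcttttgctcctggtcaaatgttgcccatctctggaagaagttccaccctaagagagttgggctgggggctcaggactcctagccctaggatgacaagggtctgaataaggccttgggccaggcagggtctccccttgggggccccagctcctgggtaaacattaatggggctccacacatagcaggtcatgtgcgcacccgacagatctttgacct
Slc34a2: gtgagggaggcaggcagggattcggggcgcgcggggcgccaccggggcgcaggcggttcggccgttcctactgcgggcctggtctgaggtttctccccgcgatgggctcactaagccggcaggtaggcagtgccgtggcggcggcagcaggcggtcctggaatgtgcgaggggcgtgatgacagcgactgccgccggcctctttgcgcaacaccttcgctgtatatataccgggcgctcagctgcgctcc
Slc8a2: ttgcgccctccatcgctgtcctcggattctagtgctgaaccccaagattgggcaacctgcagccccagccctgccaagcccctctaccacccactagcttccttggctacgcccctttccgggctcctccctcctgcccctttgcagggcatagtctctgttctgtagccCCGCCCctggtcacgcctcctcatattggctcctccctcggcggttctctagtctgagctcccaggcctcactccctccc
Slc9a3, lower in KO-labelled medulla, had 3 GC boxes, and Slc8a2, higher, had 1. Slc34a1 had 2 HNF1 cores, 89 and 61 bases before its start. Slc34a3 and Slc34a2, which moved in opposite directions, had no match. The GC content was 67.6% for Slc9a3, 46.4% for Slc34a1, 56.4% for Slc34a3, 69.6% for Slc34a2 and 63.2% for Slc8a2, beside a median of 52.4% over all promoters in the table. Of 32851 promoters of this length, 32.7% held a GC box, 6.43% an HNF1 core, 6.75% an AP-1 site and 12.4% a TATA box. Of the 55 genes 40 had an entry, with 52 promoters in all, of which 24 held a GC box, 2 an HNF1 core, 5 an AP-1 site and 5 a TATA box. A match is a description of the letters and no evidence of binding.

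Among the surface sodium-proton exchangers, the apical isoform Slc9a3 fell and the basolateral Slc9a4 rose, while Slc9a2, also apical, was not called. Slc9a3 (NHE3, Entrez 105243, chromosome 13, 74086255 to 74169442, GRCm38), the exchanger of the urinary face of proximal tubule and thick ascending limb, had 654 and 410 normalized reads in KO-labelled medulla, against 7048 and 8402 in WT-labelled medulla. The groups were far apart, the mean being lower 14.5-fold (log2 difference -3.89, SE 0.21, limma adjusted p = 2.38e-05). Slc9a4 (NHE4, Entrez 110895, chromosome 1, 40579986 to 40630731), known on the blood side of the thick ascending limb, had 1043 and 868 in KO-labelled libraries, against 297 and 360 in WT-labelled ones. It rose 2.91-fold (log2 difference 1.54, SE 0.16, limma adjusted p = 0.000283), with no overlap, but 21.3% of its exon bases are shared with opposite-strand genes in GENCODE M21, so some of its reads may belong to them. Slc9a5 (NHE5), known mainly from brain, had 224 and 246 against 336 and 332 and fell by 0.51 on the log2 scale (limma adjusted p = 0.0304). That call was lost without any 1 of the 4 libraries (adjusted p between 0.0618 and 0.138).

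Slc9a2 (NHE2), an apical isoform of the distal nephron, had 1081 and 1018 in KO-labelled libraries, against 988 and 1087 in WT-labelled ones. The groups overlapped, with a log2 difference of 0.02 (95% interval -0.23 to 0.27). The relative levels of Slc9a2, Slc9a3, Slc9a4 and Slc9a5 differed between the groups. Per kilobase of exon, Slc9a3 made up 21.8% and 16.3% of the summed level of these 4 genes in KO-labelled libraries, against 82.5% and 83.7% in WT-labelled ones. Slc9a4 made up 41.9% and 41.6% against 4.20% and 4.32%, and Slc9a2 28.4% and 31.9% against 9.12% and 8.53%.

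**Figure D2:**
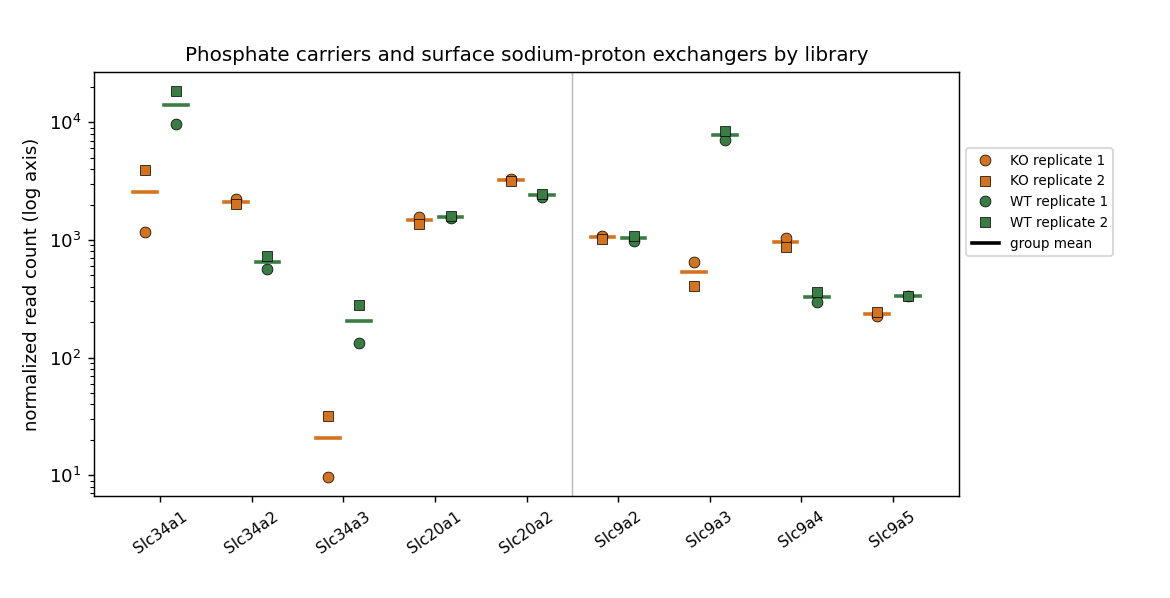
Normalized read count (log axis) of phosphate carriers and surface sodium-proton exchangers in each library, KO-labelled left and WT-labelled right for each gene; circles are replicate 1, squares replicate 2 and lines group means. Slc9a3 is at 654 and 410 in KO-labelled libraries and at 7048 and 8402 in WT-labelled ones, while Slc34a2 and Slc9a4 lie higher in the KO-labelled group.

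Both the exchanger and the phosphate carriers of the proximal tubule are held at the apical membrane by PDZ scaffolds, which the name pattern also caught. Slc9a3r2 (NHERF2, chromosome 17, 24639281 to 24650305) had 3133 and 2989 in KO-labelled libraries, against 8420 and 8337 in WT-labelled ones. It fell 2.74-fold (log2 difference -1.45, SE 0.074, limma adjusted p = 1.88e-05), with each pair of replicates close together. Slc9a3r1 (NHERF1), the scaffold that binds Slc34a1 protein, had 3742 and 3804 against 3547 and 3925, overlapping values with a log2 difference of 0.02 (95% interval -0.18 to 0.21). Slc4a1ap, an adaptor named for binding the Slc4a1 protein, had 1287 and 1307 against 1302 and 1301, and also overlapped.

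The exchangers of organelles went both ways. Slc9a9 (NHE9, chromosome 9, 94669557 to 95230453), an exchanger of endosomes, had 591 and 593 in KO-labelled libraries, against 230 and 237 in WT-labelled ones. It rose 2.53-fold (log2 difference 1.34, SE 0.14, limma adjusted p = 0.00029). Slc9a7 (NHE7), of the Golgi network, had 195 and 218 against 93.6 and 99.4 and rose 2.14-fold (limma adjusted p = 0.00368). In both genes the groups were well separated and the replicates near each other. Slc9a8 (NHE8), found in the Golgi and at the apical surface of young proximal tubules, had 1186 and 1214 against 1657 and 1743 and fell by 0.50 on the log2 scale (limma adjusted p = 0.00342). Its groups did not overlap either. Macrophage markers rose in the KO-labelled libraries as Slc9a9 and Slc9a7 did: all 10 markers of the list were higher, none was at 0, and their counts summed to 59786 and 58916 in KO-labelled libraries, against 12032 and 11794 in WT-labelled ones. Their part in the rise of these genes was not tested.

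Among the phosphate carriers Slc34a1 and Slc34a3 fell, and Slc34a2 and Slc20a2 rose. Slc34a1 (NaPi-IIa, Entrez 20505, chromosome 13, 55399622 to 55414695), the main apical phosphate carrier of the proximal tubule, had 1171 and 3902 in KO-labelled libraries, against 9589 and 18429 in WT-labelled ones. The groups did not overlap, though replicates differed widely within each, and the mean was 5.52-fold lower (log2 difference -2.64, SE 0.53, limma adjusted p = 0.00599). That call ended with a robust variance trend (adjusted p = 0.111) and with none (0.0516), and 11.7% of the gene's exon bases are shared with Pfn3 on the opposite strand. Slc34a3 (NaPi-IIc, chromosome 2, 25228897 to 25234270), its partner in the same membrane, had 9.65 and 32.0 against 133 and 279. It fell 9.89-fold (log2 difference -3.37, SE 0.58, limma adjusted p = 0.00299), again with separate groups and a wide gap between replicates. The size of both falls turned on the KO-labelled library: without KO replicate 1 the log2 differences were -1.77 for Slc34a1 and -2.55 for Slc34a3, and without KO replicate 2 they were -3.50 and -4.19, with each call kept.

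Slc34a2 (NaPi-IIb, Entrez 20531, chromosome 5, 53049353 to 53071664), the isoform best known from intestine and lung, had 2227 and 2011 in KO-labelled libraries, against 569 and 732 in WT-labelled ones. It rose 3.26-fold (log2 difference 1.71, SE 0.14, limma adjusted p = 0.000112), and unlike its paralogs it was nearly level between the KO-labelled replicates. Per kilobase of exon, Slc34a2 made up 63.6% and 32.1% of the family's summed level in KO-labelled libraries, against 5.11% and 3.47% in WT-labelled ones. Slc34a1 made up 35.8% and 66.8% against 92.3% and 93.7%. The leading isoform thus differed between the KO-labelled replicates. Of the PiT carriers, Slc20a2 had 3295 and 3197 against 2314 and 2474 and rose by 0.44 on the log2 scale (SE 0.081, limma adjusted p = 0.00389). Slc20a1 had 1572 and 1372 against 1541 and 1609, overlapping values (log2 difference -0.10, 95% interval -0.34 to 0.14). Opposite-strand genes share 13.1% of its exon bases.

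**Figure D3:**
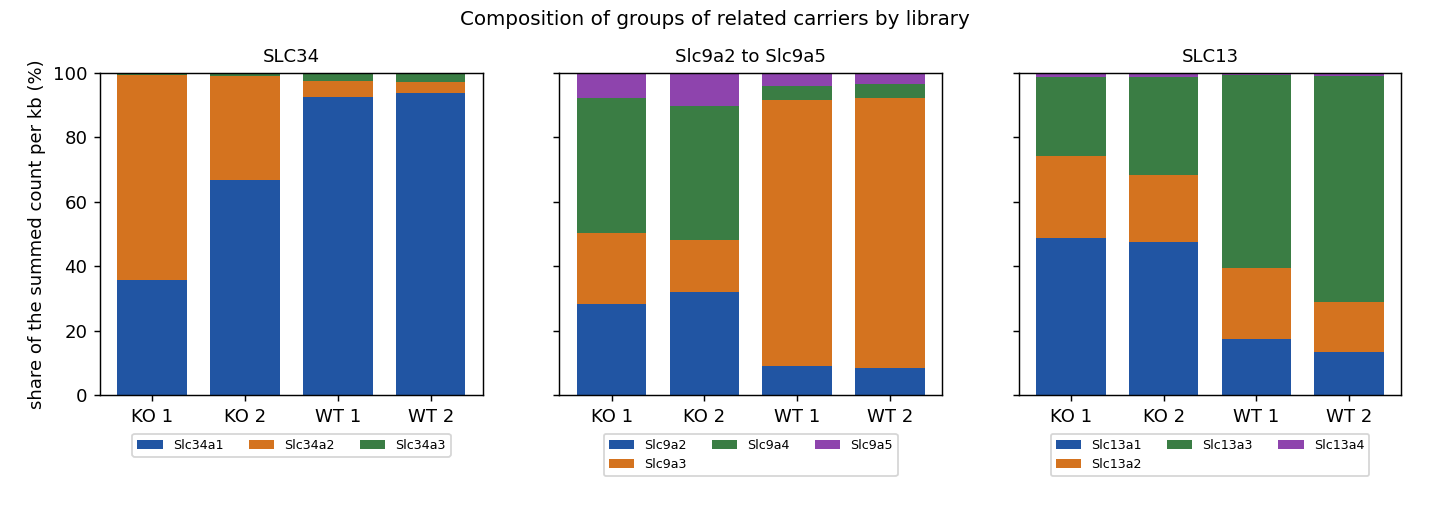
Share of each gene (%) in the summed normalized read count per kilobase of exon of the SLC34 family, of Slc9a2 to Slc9a5 and of the SLC13 family, 1 bar per library with KO-labelled bars left of WT-labelled ones. Slc34a1 and Slc9a3 make up most of their panels in the WT-labelled bars, with 92.3% and 93.7% and with 82.5% and 83.7%.

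The sulfate and dicarboxylate carriers moved apart as well. Slc13a1 (NaS1, chromosome 6, 24088283 to 24168119), the apical sulfate carrier of the proximal tubule, had 1263 and 2249 in KO-labelled libraries, against 812 and 788 in WT-labelled ones. It was higher in both KO-labelled libraries and rose (log2 difference 1.07, SE 0.24, limma adjusted p = 0.00916). The difference was 1.49 without KO replicate 1 and 0.66 without KO replicate 2, and the call ended with no variance trend (adjusted p = 0.0595). Slc13a3 (NaDC3, chromosome 2, 165405295 to 165473197), a dicarboxylate carrier of the blood side, had 428 and 968 against 1876 and 2767. It fell 3.33-fold (log2 difference -1.82, SE 0.36, limma adjusted p = 0.00539), a call that ended with a robust variance trend (adjusted p = 0.0731). The difference was -1.23 without KO replicate 1 and -2.41 without KO replicate 2. Slc13a2 (NaDC1), which takes up citrate from the urine, had 208 and 306 against 319 and 279, and Slc13a4 20.4 and 34.9 against 14.8 and 32.8, both with overlapping groups. The antisense RNA Slc13a2os had 56.8 and 66.9 against 27.6 and 19.9 and rose by 1.36 on the log2 scale (limma adjusted p = 0.0124), but was not called without WT replicate 2 (adjusted p = 0.0548) or KO replicate 2 (0.0544). It shares 17.4% of its exon bases with Slc13a2 on the other strand, and the strand setting of the counting is not given in the sources used here, so reads on the shared bases cannot be told apart. Per kilobase, Slc13a1 made up 48.6% and 47.6% of the summed SLC13 level in KO-labelled libraries, against 17.5% and 13.5% in WT-labelled ones, and Slc13a3 24.4% and 30.4% against 59.9% and 70.2%.

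The proximal tubule lies mainly in the cortex and the outer medulla. Of 12 proximal tubule markers outside these families 10 were lower and none higher in KO-labelled libraries, with none at 0 and a median log2 difference of -2.07. Their counts summed to 35342 and 45469 in KO-labelled libraries, against 101884 and 120153 in WT-labelled ones. Aqp1 alone supplied 15922 and 14937 of these counts, against 51220 and 68596. Slc6a19, Aqp1, Slc7a13 and Miox had log2 differences of -2.43, -1.94, -2.56 and -3.30. Their part in the falls of Slc34a1, Slc34a3, Slc13a3 and Slc9a3 was not tested, nor was the share of cortex in each sample. Between the WT-labelled replicates, 2 minus 1, Miox differed by 1.41 and Slc7a13 by -0.99 on the log2 scale. In whole tissue fewer cells of a type and less RNA per cell cannot be told apart. Slc13a1, although a carrier of the same segment, was higher. Further carriers of that segment, Slc4a4, Slc17a1, Slc17a3 and Slc26a1, were not called. Their log2 differences were 0.00, -0.46, -0.16 and -0.55 in that order.

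Differences between replicates were widest for Slc34a1 and Slc34a3 in the KO-labelled group. KO replicate 2 exceeded KO replicate 1 by at least 0.5 on the log2 scale in 11 of 55 genes (20%), beside 7.11% of all genes tested. These were Slc34a1 (1.74), Slc34a3 (1.63), Slc13a3 (1.18), Slc17a3 (0.95), Slc13a1 (0.83), Slc17a8 (0.78), Slc13a4 (0.75), Slc26a1 (0.70), Slc17a1 (0.65), Slc26a8 (0.63) and Slc13a2 (0.56). The proximal tubule marker list went the same way, with a median of 0.80 between the KO-labelled replicates and 0.35 between the WT-labelled ones. In the opposite direction stood Slc26a7 at -1.04, Slc9a3 at -0.67 and Slc4a5 at -0.56 (5.45% of the 55 genes, beside 3.75% of all genes tested). Between the WT-labelled replicates 7 of 55 genes (12.7%) differed by at least 0.5, all of them upward in replicate 2. Over all genes tested 4.95% differed that far upward and 6.25% downward. Of the 7 genes Slc13a4 differed most at 1.10, followed by Slc34a3 at 1.07 and Slc34a1 at 0.94.

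**Figure D4:**
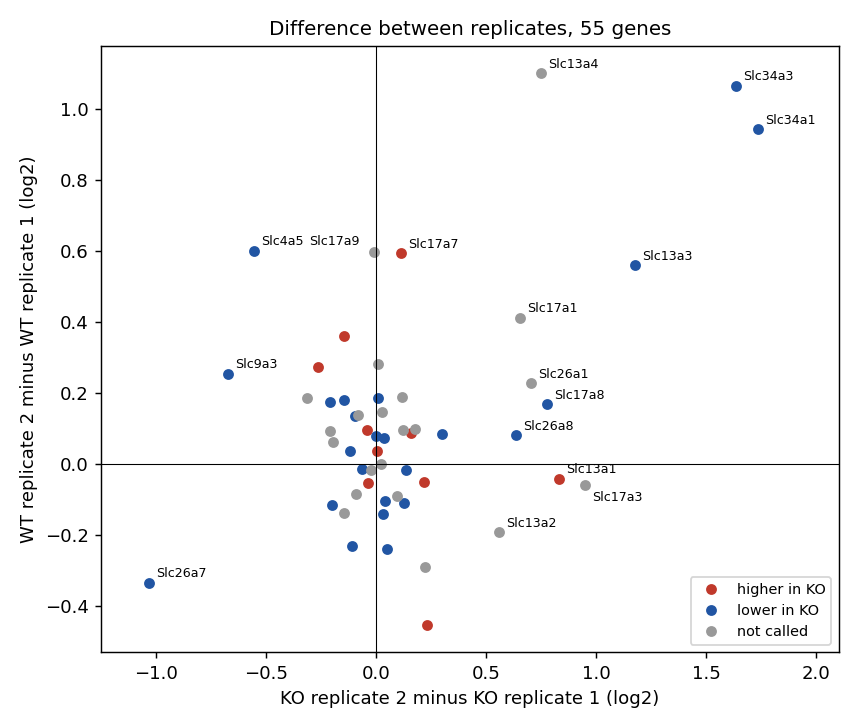
Log2 difference between replicates 2 and 1 within the KO-labelled (horizontal) and WT-labelled (vertical) groups for the 55 genes, coloured by their call between groups, with names where either difference reaches 0.5. Slc34a1 and Slc34a3 lie at the upper right, at 1.74 and 1.63 on the horizontal axis.

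The SLC17 carriers of the proximal tubule did not pass the test, whereas several less abundant members did. Slc17a1 (NPT1), an apical carrier of urate and other organic anions, had 1373 and 2157 in KO-labelled libraries, against 2056 and 2734 in WT-labelled ones. The groups overlapped, and its log2 difference of -0.46 was not called (limma adjusted p = 0.122), but was without KO replicate 2 (log2 difference -0.79, adjusted p = 0.00713). Slc17a3 (NPT4) had 482 and 931 against 763 and 733, with the WT-labelled values between the KO-labelled ones. It too was called without KO replicate 2 (log2 difference -0.63, adjusted p = 0.0159), the difference being -0.16 with all libraries. Slc17a4, of the same gene cluster on chromosome 13, had 30.0 and 31.1 against 121 and 102 and fell 3.66-fold (log2 difference -1.83, limma adjusted p = 0.00141). Slc17a5 (sialin), the lysosomal sialic acid exporter, had 2565 and 2497 against 2174 and 2095. Its rise of 0.25 (limma adjusted p = 0.0378) was lost without any 1 of the 4 libraries (adjusted p between 0.0694 and 0.178).

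Vesicular carriers of this family, known from neurons, were scarce. Slc17a8 (VGLUT3) had 78.3 and 135 in KO-labelled libraries, against 208 and 234 in WT-labelled ones, and fell by 1.09 on the log2 scale (limma adjusted p = 0.0163). Without KO replicate 1 the difference was -0.71 and the call ended (adjusted p = 0.0578), as it did without WT replicate 1 (0.0586) or 2 (0.0872). Slc17a7 (VGLUT1) had 18.2 and 19.8 against 2.95 and 4.97, a log2 difference of 2.04 (limma adjusted p = 0.0135) that DESeq2 did not call (adjusted p = 0.0744). Slc17a9 (VNUT), the vesicular nucleotide carrier, had 24.7 and 24.5 against 12.8 and 19.9 and was not called.

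Most bicarbonate carriers of the SLC4 family fell modestly, and the electrogenic Slc4a4 did not differ. Slc4a2 (AE2), a chloride-bicarbonate exchanger of the blood side, had 4653 and 4204 in KO-labelled libraries, against 6474 and 7340 in WT-labelled ones. It fell 1.56-fold (log2 difference -0.64, SE 0.095, limma adjusted p = 0.0015), but 13.7% of its exon bases are shared with opposite-strand genes. Its relative Slc4a3 (AE3) had 929 and 854 against 1212 and 1242 and fell 1.38-fold (limma adjusted p = 0.00814). Slc4a7 (NBCn1), which brings bicarbonate into cells of the medullary thick limb, had 1729 and 1765 against 2644 and 2398 and fell 1.44-fold (limma adjusted p = 0.00259). In these 3 genes the groups were separate, the falls being small next to that of Slc9a3.

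Slc4a5 (NBCe2), another sodium-bicarbonate carrier, had 316 and 215 in KO-labelled libraries, against 619 and 938 in WT-labelled ones, and fell 2.93-fold (log2 difference -1.54, SE 0.25, limma adjusted p = 0.0024). Slc4a11, a family member mutated in a corneal dystrophy in humans, was among the most abundant of these genes, with 3471 and 3215 against 6060 and 5168. It fell 1.68-fold (log2 difference -0.74, limma adjusted p = 0.000936). Slc4a8 (NDCBE), a sodium-driven exchanger of intercalated cells, had 1046 and 904 against 1193 and 1347, and its fall of 0.38 (limma adjusted p = 0.0322) was lost without WT replicate 2 (adjusted p = 0.149) or KO replicate 2 (0.168). Slc4a4 (NBCe1), the bicarbonate exit of the proximal tubule, had 4672 and 5270 against 4791 and 5124, overlapping values with a log2 difference of 0.00 (95% interval -0.21 to 0.21).

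In the SLC26 anion family 4 of 7 genes fell and none rose, while 24.9% of all genes tested were lower and 26.3% higher. Slc26a10 (chromosome 10, 127171393 to 127180705) had 34.3 and 42.4 in KO-labelled libraries, against 252 and 267 in WT-labelled ones, and fell 6.77-fold (log2 difference -2.73, SE 0.23, limma adjusted p = 0.000131). It shares 17.8% of its exon bases with B4galnt1 on the opposite strand. Slc26a7, a chloride-bicarbonate exchanger of the blood side of acid-secreting intercalated cells, had 156 and 75.4 against 390 and 309 and fell 3.03-fold (log2 difference -1.67, SE 0.34, limma adjusted p = 0.00594), the difference being -2.19 without KO replicate 1 and -1.15 without KO replicate 2. Slc26a8, known from sperm, had 11.8 and 18.8 against 61.1 and 64.6 and fell 4.10-fold (limma adjusted p = 0.00371). The 3 falls reached at least 1 on the log2 scale, and no KO-labelled value overlapped a WT-labelled one. Slc26a6, an apical chloride-oxalate exchanger, had 308 and 335 against 509 and 472 and fell by 0.61 (limma adjusted p = 0.01), and missed the threshold when WT replicate 1 (adjusted p = 0.0599) or KO replicate 1 (0.0538) was left out.

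The sulfate carriers of this family did not pass the test. Slc26a1, of the blood side of the proximal tubule, had 278 and 452 in KO-labelled libraries, against 480 and 562 in WT-labelled ones (log2 difference -0.55, limma adjusted p = 0.0908). It was called without KO replicate 2 (log2 difference -0.90, adjusted p = 0.00771). Slc26a2, mutated in diastrophic dysplasia in humans, had 768 and 821 against 968 and 909, and Slc26a11 had 619 and 579 against 667 and 628. The groups did not overlap in these 3 genes, with the KO-labelled values below, as in 38.7% of all genes tested.

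Intercalated cell markers were lower in the same libraries as Slc26a7 and Slc4a8. Of 8 markers, 3 of them carriers set apart above, 7 were lower and none higher, with none at 0. Their counts summed to 5533 and 4973 in KO-labelled libraries, against 20127 and 21200 in WT-labelled ones. Their part in the falls of Slc26a7 and Slc4a8 was not tested.

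Among the chloride cotransporters, Slc12a4 and Slc12a7 showed smaller falls and the neuronal Slc12a5 a larger one, while Slc12a2 did not fall. Slc12a2 (NKCC1), the sodium-potassium-chloride carrier of the blood side, was nearly level, with 5943 and 5365 in KO-labelled libraries, against 5752 and 5228 in WT-labelled ones (log2 difference 0.04, 95% interval -0.17 to 0.25). Of the potassium-chloride cotransporters, Slc12a4 (KCC1) had 2946 and 2945 against 4396 and 4643 and fell 1.53-fold (log2 difference -0.62, SE 0.076, limma adjusted p = 0.000665). Its groups were separate.

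Slc12a7 (KCC4), known on the blood side of acid-secreting cells, had 3725 and 3482 in KO-labelled libraries, against 4074 and 4474 in WT-labelled ones. Its fall of 0.25 (limma adjusted p = 0.0473) was lost in 8 of 17 alternatives, among them the removal of WT replicate 2 (adjusted p = 0.183), KO replicate 1 (0.0886) or KO replicate 2 (0.227). Slc12a5 (KCC2), known from neurons, had 60.1 and 60.3 against 192 and 219 and fell 3.41-fold (log2 difference -1.75, SE 0.21, limma adjusted p = 0.000633). Slc12a8 and Slc12a9, relatives whose transported ions are less settled, were not called. Slc12a9 had 949 and 1028 against 798 and 909, the higher values being KO-labelled.

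Among the calcium exchangers the mitochondrial one fell and a plasma membrane one rose. Slc8b1 (NCLX, chromosome 5, 120511168 to 120534024), which takes calcium out of mitochondria in exchange for sodium, had 1180 and 1025 in KO-labelled libraries, against 2345 and 2165 in WT-labelled ones. It fell 2.05-fold (log2 difference -1.03, SE 0.11, limma adjusted p = 0.00029). Slc8a2 (NCX2, Entrez 110891, chromosome 7, 16127592 to 16161063), known mainly from brain, had 183 and 213 against 45.3 and 43.7. It rose 4.45-fold (log2 difference 2.13, SE 0.23, limma adjusted p = 0.000361), the largest called rise among these genes on the log2(value + 1) scale; by the ratio of means Slc17a7, a scarce gene, stood above it at 4.80-fold. Slc8a3 (NCX3), of muscle and brain, had 22.5 and 22.6 against 37.4 and 45.7 and was not called (limma adjusted p = 0.0686). It was called after quantile normalization (adjusted p = 0.0488) and with no variance trend (0.0145). Of the potassium-dependent exchangers, Slc24a3 had 242 and 264 against 215 and 230, and Slc24a5, a gene of pigment cells that shares 39.5% of its exon bases with Myef2, had 97.6 and 114 against 164 and 134. Neither was called, but Slc24a5 was after quantile normalization (adjusted p = 0.0396).

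The order of levels differed between the groups as well. By mean normalized count per kilobase of exon, the 4 leading carriers in KO-labelled libraries were Slc17a1 (744), Slc17a5 (698), Slc12a4 (688) and Slc4a11 (669), which lie close together. The KO-labelled replicates differed, with 579 and 910 per kilobase for Slc17a1. Slc34a1, with a mean of 543, had 250 and 835. In WT-labelled libraries the 5 leading carriers were Slc34a1 (2996), Slc9a3 (1404), Slc4a11 (1123), Slc12a4 (1056) and Slc17a1 (1010). Slc34a1 varied from 9589 to 18429 counts between the WT-labelled replicates, but both of its values per kilobase stood above those of Slc9a3. Slc9a3 averaged 96.7 per kilobase in KO-labelled libraries.

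The 6 carriers set apart moved mostly downward. Slc4a1, Slc4a9 and Slc26a4 of intercalated cells, Slc12a1 of the thick ascending limb and Slc12a3 of the distal convoluted tubule all fell, the log2 differences being -5.75, -1.91, -4.48, -2.84 and -2.75 in that order. The exchanger of sodium for calcium Slc8a1 rose by 0.88, and limma called all 6. Without WT replicate 2 the differences of Slc12a3 and Slc26a4 were -1.85 and -3.61, and without WT replicate 1 they were -3.66 and -5.35. Thick ascending limb markers, among them Slc12a1, moved with Slc9a3, which that segment also expresses: 9 of 11 were lower, 1 higher and none at 0, and their counts summed to 267211 and 188271 in KO-labelled libraries, against 509553 and 528511 in WT-labelled ones. Umod alone supplied 203680 and 138033 of these counts, against 136828 and 143709, overlapping values, and was not called. The part of these markers in the fall of Slc9a3 was not tested. Of other carriers placed in that segment above, Slc9a4 rose and Slc4a7 fell, with log2 differences of 1.54 and -0.53.

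Regulators and partners of these carriers were read from the same fit, in which 24.9% of all genes tested were lower and 26.3% higher. Of 13 genes of the WNK and SPAK kinase cascade, which sets the activity of SLC12 carriers, 7 fell and 1 rose (median log2 difference -0.25). Wnk4, a kinase of the distal nephron, had 2348 and 1783 normalized counts in KO-labelled libraries, against 8437 and 9794 in WT-labelled ones, a log2 difference of -2.15 (limma adjusted p = 4.71e-05). Cab39l, a scaffold of SPAK, and Sgk1, an aldosterone-induced kinase, fell by 1.36 and 1.06 on the log2 scale. Wnk2, a WNK kinase known mainly from brain, rose by 0.79 (limma adjusted p = 0.00375). Of 7 cofactors and scaffolds 4 fell and none rose. These were Ahcyl1 (IRBIT), an activator of bicarbonate carriers, with a log2 difference of -0.40, its relative Ahcyl2 with -0.88, Pdzk1, a scaffold of apical carriers, with -1.01, and Tesc, a calcium-binding protein, with -0.83.

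Carbonic anhydrases form the bicarbonate that these carriers move. Of the 5 chosen for the list 4 fell, while 24.9% of all genes tested were lower. Car14, Car4, Car2 and Car12 had log2 differences of -4.39, -2.67, -1.96 and -1.50, and the other, Car15, was not called. Car2, the cytosolic enzyme, had 4316 and 3712 normalized counts in KO-labelled libraries, against 15048 and 16210 in WT-labelled ones (limma adjusted p = 1.66e-05). Car14, of the membrane, had 41.8 and 68.8 against 978 and 1334 (limma adjusted p = 3.96e-05). Of 5 genes of phosphate hormone reception and export, Kl, the co-receptor of the phosphate-lowering hormone FGF23, fell by 2.00 on the log2 scale (limma adjusted p = 1.24e-05) with 2188 and 2200 against 8240 and 9337. Fgfr1, its partner receptor, rose by 0.49 (limma adjusted p = 0.00337). The vitamin D receptor Vdr and the phosphate exporter Xpr1, with log2 differences of 0.12 and -0.11, were not called, nor was the parathyroid hormone receptor Pth1r.

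Markers of other cells also differed between the groups, and their part in the changes of carriers was not tested. Fibroblast markers were higher for 5 of 8 genes and lower for none, summing to 472631 and 545688 in KO-labelled libraries, against 193168 and 199062 in WT-labelled ones. The collagen gene Col3a1 alone supplied 261051 and 308699 of the KO-labelled sums. The 3 not called were Pdgfra, Pdgfrb and Dcn, with log2 differences of -0.10, 0.14 and 0.33. Endothelial markers were lower for 8 of 8 genes, with sums of 25154 and 23848 against 74756 and 75952, and principal cell markers, which define the collecting duct, for 6 of 8, with sums of 23334 and 17995 against 62888 and 75280. Urothelial markers were lower for 6 of 6 genes, with sums of 806 and 484 against 3926 and 3738. Red cell markers, which bear on Slc4a1 as the anion exchanger of red cells too, were lower for the 3 genes of 6 that could be tested, and the 5 measured summed to 831 and 568 against 3033 and 2705. No measured marker of these 5 lists was at 0 in all libraries.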

How the data were processed

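The authors deposited a normalized signal for every gene in each library. The values show it to be gene reads scaled by 1 factor per library, since each column holds whole multiples of a single step (1.07 and 0.942 in KO, 0.985 and 0.994 in WT; 100% whole within 0.001). The submitters' processing notes list HISAT2 2.2.1, fastp 0.20.1, DESeq2 2.11.40.7 and featureCounts 2.0.1, with the builds GRCm38 and mm10; the sources used here give no annotation, strand setting or treatment of multi-mapping reads. Of 27179 Entrez IDs 25275 matched a RefSeq symbol (GRCm38.p6).

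limma 3.58.1 (R 4.3.3) with a variance trend was fitted to log2(value + 1) of the 16253 genes whose mean reached 10, two-sided, with Benjamini-Hochberg adjustment at 0.05. Adding 1 understates changes of low genes. Folds are ratios of group means, and intervals are 95%. Recovered reads were tested with edgeR 4.0.16 (quasi-likelihood) and DESeq2 1.42.0 as alternatives, and the tests were tried on simulated data. Levels per kilobase and shared exon bases use exon unions of GENCODE M21, which may not be the annotation counted. The labels' protocol speaks of 2 KO and 2 WT animals; p-values measure only the spread between these libraries.

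Members and lists were chosen with earlier results of these data known. Library values were to be given for genes with a mean of at least 500 or a called log2 difference of at least 1, and for each partner list up to 4 genes with the smallest adjusted p; further carriers were named so that the families are covered. A few members entered the counts and fits but are not reported here.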

Additional observations from a re-analysis of the deposited data

How the results depend on the processing

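In the KO-labelled libraries 10 of the 55 genes were higher and 24 lower, and the counts ran from 8 to 10 and from 20 to 25 over the 17 alternatives (other pseudocounts, filters, scalings, variance models, edgeR, DESeq2, a replicate block and each library left out). Of the 34 called genes 23 kept their call in every alternative that tested them. Of the 21 others 16 stayed uncalled, and no called gene changed sign. The median log2 difference of -0.33 ranged from -0.40 (without KO replicate 2) to -0.20 (without KO replicate 1). With the replicate number as a block 9 were higher and 23 lower, and over all genes 3810 were higher, against 4277 without it. Slc17a1 (adjusted p = 0.0131) and Slc26a1 (0.0371) were then called, and Slc12a7 (0.104), Slc17a5 (0.099), Slc4a8 (0.0559) and Slc9a5 (0.055) were not; the labels do not say that equal numbers pair animals, and the replicate differences correlated at -0.06 across 16253 genes and at 0.46 across the 55 genes. edgeR called 4190 genes higher and 4113 lower, DESeq2 4006 and 3817. With 2 libraries per group, each gene has 2 residual degrees of freedom, and genes with wide replicate differences had intervals too wide to show small changes.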

Other observations

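Of the 65 genes with a symbol of these families outside the carriers set apart, 10 fell below the mean of 10 and entered no test. Slc17a6 (VGLUT2), a vesicular glutamate carrier, had no read in any of the 4 libraries. Slc26a9, a chloride carrier known from stomach and airway, had 4 and 1 recovered reads in the KO-labelled libraries and none in the WT-labelled ones. Slc13a5, the citrate carrier of liver, had 1 read in each KO-labelled library and none in the WT-labelled ones. Slc26a3 and Slc26a5 had no read in the KO-labelled libraries, against 1 and 1 and against 0 and 1 in the WT-labelled ones. Slc24a1 had 1 and 3 against 0 and 8, Slc24a2 none against 2 and 0, and Slc24a4 0 and 1 against 1 and 1. Slc4a10 had 8 and 3 reads in KO-labelled libraries, against 16 and 6 in WT-labelled ones, and Slc17a2 6 and 8 against 17 and 6.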
